A study of Mus musculus with 21 samples.

Results

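Serpins, the superfamily of protease inhibitors that includes antithrombin and α1-antitrypsin, were described in mouse liver across 4 genotypes and 3 conditions. Members were all rows of the RNA-seq table whose symbol is Serpin followed by a clade letter from a to i and a number, pseudogene entries included. This gave 57 of 22520 rows, and 26 of these reached 1 FPKM in at least 1 column. FPKM (fragments per kilobase, scaled to sequencing depth) accounts for gene length, so levels below are compared between genes on that scale. There is 1 column of values per group, and no value carries a spread between animals.

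WT animals were Ezh2fl/fl, E1KO were Ezh1-/-, E2KO were Ezh2fl/flAlb-Cre and DKO were Ezh1-/-Ezh2fl/flAlb-Cre, all on the mixed background 129SV::FVB/N::C57BL/6. Livers came from untreated animals of 2 and 8 months, and from 3-month animals given CCl4 (carbon tetrachloride, which hepatocytes turn into a toxic radical) at 2 ml/kg 2 times a week for 2 weeks and killed 24 h after the last dose. CCl4 columns are compared with younger untreated ones, so age and CCl4 differ together. Alb-Cre acts in cells that express albumin, so liver cells of lineages without albumin expression keep Ezh2. WT carries the floxed Ezh2 allele, and no group has Cre alone. The titles give 3 replicates behind each column (2 for those of 8 months) without saying how they were joined.

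A serpin presents an exposed loop that resembles a protease substrate. The protease cleaves it, becomes covalently trapped, and is distorted along with the refolded inhibitor. Hepatocytes secrete most plasma serpins, which restrain coagulation, fibrinolysis, complement and leukocyte proteases. Some members carry hormones or chaperone collagen instead of inhibiting a protease. PRC2, a Polycomb complex that methylates histone H3 at lysine 27, uses either Ezh1 or Ezh2 as its enzyme. In rodents several clade A genes have multiplied, and the Serpina1 and Serpina3 families lie in a cluster on chromosome 12.

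Start regions are printed for 4 genes picked after their values were seen. Serpina12 was picked for its lower level in DKO, Serpina3c and Serpina7 for their DKO values with CCl4, and Serpine2 for a DKO difference that changed sign. Serpina7 and Serpine2 passed no test in the fits that used all columns. Serpina4-ps1 and Serpinb1a, also called in DKO against WT, had no start region in the sequences used. Each printed region runs from 250 bases before to 50 bases after an annotated start, 5′ to 3′ on the gene's strand, from RefSeq on GRCm38.p6. CpG dinucleotides, the sites of DNA methylation, are in capitals. Serpina12 is at chr12:104044394-104044693, Serpina3c at chr12:104153823-104154122, Serpina7 at chrX:139085170-139085469 (1 of its 2 windows) and Serpine2 at chr1:79858616-79858915, all on the minus strand.
Serpina12: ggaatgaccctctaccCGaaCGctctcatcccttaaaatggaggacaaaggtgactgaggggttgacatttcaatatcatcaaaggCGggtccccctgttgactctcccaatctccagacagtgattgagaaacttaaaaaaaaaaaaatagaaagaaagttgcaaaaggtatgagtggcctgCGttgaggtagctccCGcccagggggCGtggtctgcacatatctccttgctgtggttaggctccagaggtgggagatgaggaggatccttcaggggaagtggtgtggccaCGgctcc
Serpina3c: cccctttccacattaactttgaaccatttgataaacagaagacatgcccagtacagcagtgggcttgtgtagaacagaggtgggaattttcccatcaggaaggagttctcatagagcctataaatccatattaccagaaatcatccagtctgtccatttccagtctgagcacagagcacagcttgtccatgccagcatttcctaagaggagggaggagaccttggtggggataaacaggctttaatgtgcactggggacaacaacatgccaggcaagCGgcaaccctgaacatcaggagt
Serpina7: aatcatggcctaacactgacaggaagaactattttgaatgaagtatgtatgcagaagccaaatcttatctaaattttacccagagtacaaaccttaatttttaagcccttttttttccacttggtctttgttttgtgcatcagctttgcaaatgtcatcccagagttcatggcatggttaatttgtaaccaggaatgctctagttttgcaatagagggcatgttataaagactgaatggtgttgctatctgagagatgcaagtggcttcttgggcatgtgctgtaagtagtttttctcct
Serpine2: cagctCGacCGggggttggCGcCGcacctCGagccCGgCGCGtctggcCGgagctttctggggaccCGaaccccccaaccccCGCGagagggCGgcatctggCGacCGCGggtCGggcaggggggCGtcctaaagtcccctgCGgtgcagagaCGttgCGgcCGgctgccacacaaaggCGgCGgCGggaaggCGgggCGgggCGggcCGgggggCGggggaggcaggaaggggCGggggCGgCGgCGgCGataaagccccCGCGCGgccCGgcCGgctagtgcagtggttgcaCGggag
The Serpine2 window holds 41 CpGs, against 7 in Serpina12, 1 in Serpina3c and 0 in Serpina7. The median was 4 over the 22 windows of the 18 members that have one, and 7 over 32851 mouse promoters of the same length. The letters TTCNNNGAA (the core that STAT factors can bind, searched on both strands) occurred in 6 windows of 4 members, Serpina11, Serpina3f, Serpina3g and Serpinb6a, and in 8.3% of all promoters. These are letter matches only.

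Serpin rows summed to 2833 to 5051 FPKM per column. That was 0.499% of the column in DKO at 8 months, the lowest share, and 0.838% in WT at 2 months, the highest. Clades C to I, which hold antithrombin and C1 inhibitor, made up 52.3% to 76.8% of serpin FPKM, and clade B, the intracellular serpins, 0.165% to 1.17%. The Serpina3 cluster made up 7.54% (DKO at 8 months) to 35.5% (E1KO with CCl4). Reaching 1 FPKM were 5 of 10 Serpina3 rows, 8 of 8 other clade A rows, 5 of 27 clade B rows and 8 of 11 rows of clades C to I. The Serpina1 cluster had 1 row, Serpina1f, at no more than 0.01 FPKM in any column. Serpina1a to Serpina1e, which encode mouse α1-antitrypsin, and Serpina3k are not analysed here. The sums and shares above leave them out. Column totals have no row for the hepatocyte genes Alb, Ttr, Trf and Apoa1 either, so shares of a column are not shares of all liver RNA. Of the 31 rows never at 1 FPKM, 24 never reached 0.1, and the highest was Serpina3h at 0.62.

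**Figure D1:**
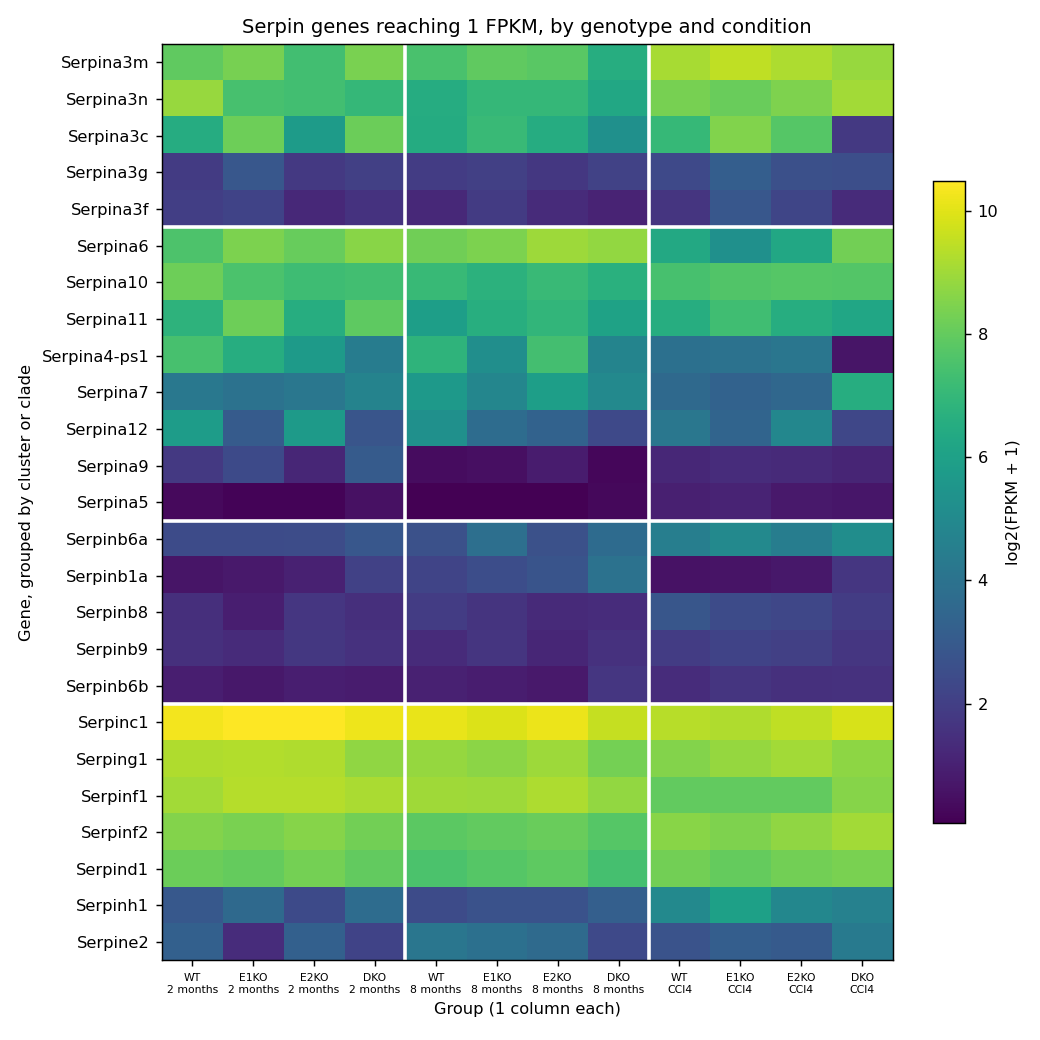
Heat map of log2(FPKM + 1) for 25 serpin genes that reach 1 FPKM (rows, grouped from the top as Serpina3 cluster, other clade A, clade B, clades C to I) in the 12 columns. Serpinc1 is the brightest row, up to 1432 FPKM, and Serpina3c with CCl4 is dark in DKO (2.43 FPKM) beside bright neighbours.

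Ezh1 was 1.96 to 2.5 FPKM in the WT and E2KO columns and 0.06 to 0.27 in E1KO and DKO, except for 0.88 (43.1% of WT) in the 8-month column labelled E1KO, which does not match its label as the other E1KO columns do. That column also held skeletal muscle marker RNA (10 markers summed to 461 FPKM, against 1.29 to 2 in the others). Ezh2 was 1.11 FPKM in WT, 0.8 in E1KO, 0.84 in E2KO and 0.74 in DKO at 2 months, and did not set E2KO apart from E1KO. At 8 months these were 0.91, 0.78, 0.79 and 1.27, so Ezh2 in the DKO column was above WT, against its label. These are gene-level values of whole liver, in which cells of lineages without albumin expression keep Ezh2. With CCl4 it was 5.68 in WT, 4.68 in E1KO, 3.92 in E2KO and 2.51 in DKO. Hepatocyte markers (10 of 14 in the table) summed to 11277 to 24852 FPKM, abundant in every column. In bulk liver, fewer cells of a type and less RNA per cell cannot be told apart.

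DKO livers had less Serpina12 and Serpina4-ps1 RNA and more Serpinb1a RNA than WT livers over the 3 conditions. Tests used limma on log2(FPKM + 1) with additive genotype and condition terms, and p-values were adjusted by Benjamini-Hochberg over the 11394 genes with at least 1 FPKM in at least 2 columns. The spread in this fit is the departure of columns from additivity, not variation between animals. All 25 serpin rows that passed the filter also pass it without the DKO columns. DKO against WT called 3 of the 25 (1 higher, 2 lower), beside 2.62% of all tested genes (1.81% higher, 0.816% lower). The median difference was -0.06 over serpins and -0.05 over all genes.

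Serpina12 encodes vaspin, an adipokine known as an inhibitor of kallikrein 7. At 2 months it was 54.8 FPKM in WT, 7.36 in E1KO, 51.8 in E2KO and 6.07 in DKO. The 8-month values were 38.4 in WT, 12.6 in E1KO, 9.16 in E2KO and 4.06 in DKO, and with CCl4 17.3, 9.72, 28.9 and 3.78 in the same order. DKO was the lowest column in each condition, and E1KO was also below WT in each, while E2KO was near WT at 2 months, below it at 8 months and above it with CCl4. The fitted difference between DKO and WT was -2.63 ± 0.53 (SE, log2; limma adjusted p = 0.0439). E1KO differed from WT by -1.68 ± 0.53 without passing (limma adjusted p = 0.816; 0.0117 unadjusted).

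Serpina4-ps1, an annotated pseudogene of the kallistatin locus, lies next to Serpina12 in the RefSeq gene order. Its 2-month levels were 173 FPKM in WT, 93.4 in E1KO, 52.7 in E2KO and 20.5 in DKO. At 8 months the values were 114 in WT, 36.3 in E1KO, 166 in E2KO and 26.2 in DKO, and with CCl4 14.09, 14.65, 16.74 and 0.56. DKO was the lowest column each time. WT and E2KO exchanged order between 2 and 8 months, and with CCl4 the 3 other genotypes lay close together. The DKO difference was -2.79 ± 0.57 (SE, log2; limma adjusted p = 0.0449).

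Serpinb1a encodes an intracellular inhibitor of neutrophil elastase, cathepsin G and proteinase 3. It was 0.56 FPKM in WT, 0.69 in E1KO, 1 in E2KO and 3.17 in DKO at 2 months. By 8 months it was 3.58 in WT, 4.72 in E1KO, 5.85 in E2KO and 15.0 in DKO, and with CCl4 0.5, 0.54, 0.67 and 2.28. The rank order WT, E1KO, E2KO, DKO was the same in all 3 conditions, with DKO well above the rest. DKO rose by 1.45 ± 0.12 (SE, log2) over WT (limma adjusted p = 0.00193). The excess of DKO over the sum of both single losses was 0.93 on the log2 scale and did not pass (limma adjusted p = 0.156). The Serpina12 and Serpina4-ps1 calls ended when any of the 3 conditions was left out (limma adjusted p = 0.110 to 0.265) and with no filter on low values (0.0601 and 0.0611), Serpina12 also without the 8-month column labelled E1KO (0.0513) and Serpina4-ps1 with a pseudocount of 0.1 (0.0533). Serpinb1a lost its call without the 2-month columns (0.0782), and the 3 genes gave 0.0799, 0.0799 and 0.0842 with only the WT and DKO columns.

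Neutrophil markers (9 in the table) summed to 9.08 FPKM in the 2-month DKO column against 7.39 in WT, to 21.98 against 3.51 at 8 months, and to 53.42 against 14.1 with CCl4; 4 of the 9 were at 0 in at least 1 column. Cholangiocyte and progenitor markers (10 in the table) summed to 103 FPKM against 66.2, 321 against 51.65, and 704 against 411 in the same order. Both sums were above WT in each DKO column, as Serpinb1a was. So were the macrophage, stellate cell, lymphocyte and platelet marker sums, while the hepatocyte, sinusoidal endothelial, mesothelial and skeletal muscle sums were not in every condition. With CCl4, E1KO was also above WT in both sums (neutrophil 35.17, cholangiocyte and progenitor 656), where Serpinb1a was 0.54 against 0.5. Both sums were highest with CCl4, where Serpinb1a was lowest in each genotype. The part of these cell types in the Serpinb1a result was not tested.

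**Figure D2:**
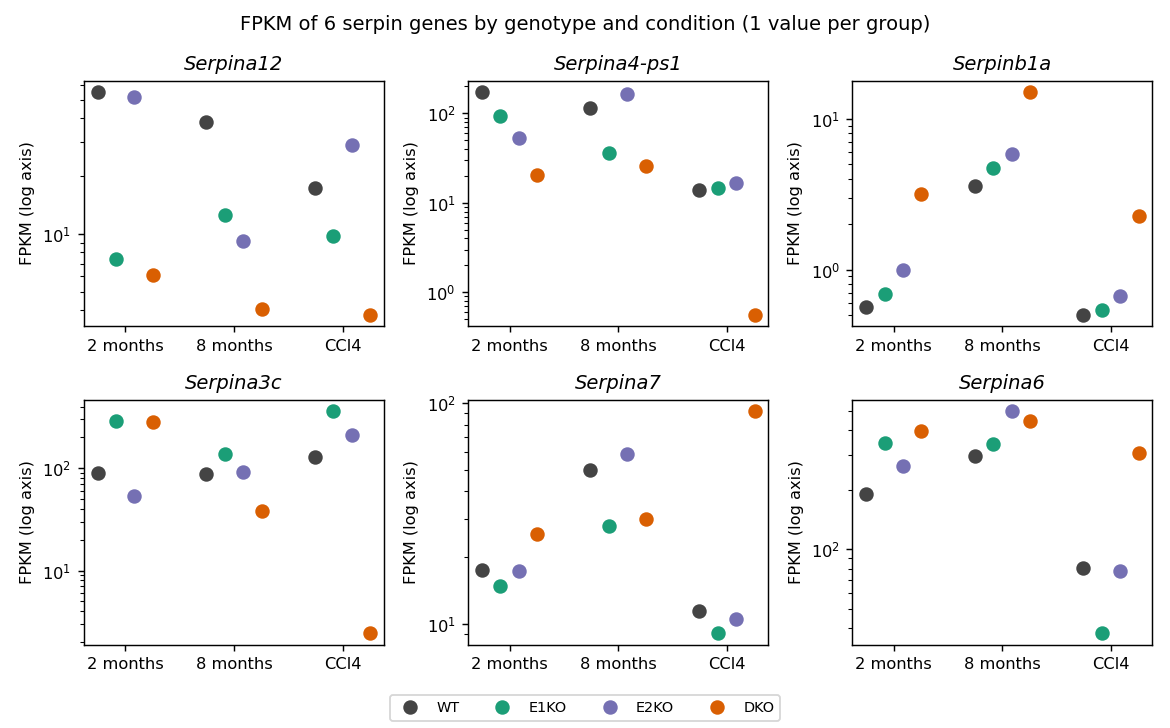
FPKM (log axes) of 6 serpin genes in the 4 genotypes (colours) at 2 months, 8 months and with CCl4; each point is 1 column. DKO lies lowest for Serpina12 and Serpina4-ps1 and highest for Serpinb1a in all 3 conditions, while Serpina3c, Serpina7 and Serpina6 show a DKO point far from the others with CCl4.

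Loss of a single enzyme moved no serpin past the threshold. E1KO against WT called 0 of 25 serpins beside 0.0176% of all genes, with 5 serpins at an unadjusted p under 0.05 by limma, the only tool run (640 of 11394 genes were). E2KO against WT called 0 of 25 beside 0% of all genes, with 1 serpin (Serpinb1a, 0.36) under that unadjusted limit (155 of all genes were). The test of whether the double loss departs from the sum of the single losses called 0 of 25 beside 0.0351%, with 3 under 0.05 unadjusted (776 of all genes were). In E1KO the 5 were Serpina11 (0.95), Serpina12 (-1.68), Serpina3f (0.67), Serpina3g (0.65) and Serpinb6a (0.55), all differences on the log2 scale.

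Single conditions were read by a 2-fold rule, a difference of at least 1 in log2(FPKM + 1), with no test. In columns labelled E1KO 2 serpins were above WT at 2 months (Serpina11 and Serpina3c, beside 1.09% of all tested genes) and 3 below (Serpina12, Serpina3n and Serpine2, 1.14%). At 8 months Serpinb6a was above (0.843%) and Serpina12 and Serpina4-ps1 below (1.1%), and with CCl4 Serpina3c, Serpina3f and Serpinh1 were above (1.2%) and Serpina6 below (0.825%). In E2KO 0 serpins were above WT at 2 months (0.395%), while Serpina3n and Serpina4-ps1 were below (0.816%). At 8 months Serpina11 was above (1.38%) and Serpina12 below (1.42%), and with CCl4 there were 0 above (0.421%) and 0 below (0.579%).

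The columns labelled E1KO and DKO stood together for a few serpins, at least 2-fold outside both WT and E2KO. At 2 months Serpina11 and Serpina3c were higher in both (beside 0.36% of all tested genes), and Serpina12 and Serpine2 lower (0.342%). At 8 months Serpinb6a was higher (0.123%) and Serpina4-ps1 lower (0.149%); both rest on the 8-month column labelled E1KO, with its Ezh1 at 43.1% of WT and its muscle RNA, and without it there is no 8-month E1KO value. With CCl4 there were 0 such serpins (0.123% of all genes were higher and 0.132% lower). The columns labelled E2KO and DKO stood outside the other genotypes for 0 serpins, beside 0.0351% of all genes higher and 0.105% lower at 2 months, 0.184% and 0.0702% at 8 months, and 0.0614% either way with CCl4.

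**Figure D3:**
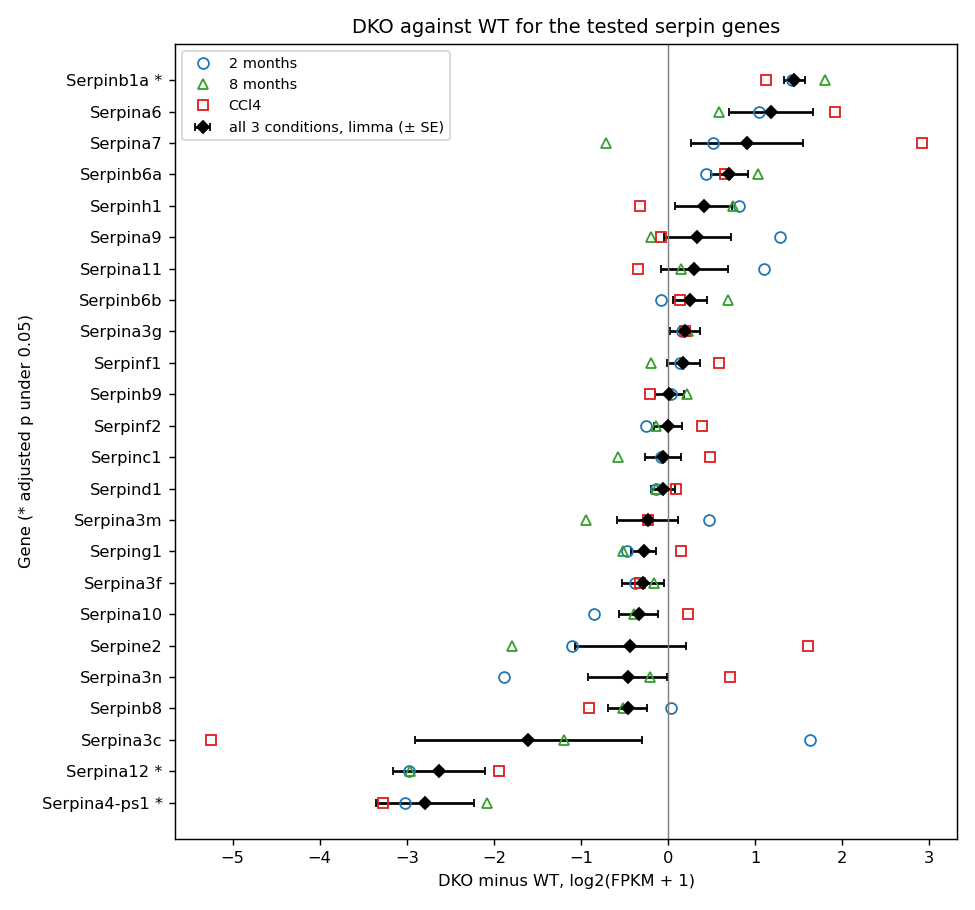
Difference of log2(FPKM + 1) between DKO and WT for 24 tested serpin genes: diamonds are limma estimates over 3 conditions with their SE, open symbols the single conditions. Asterisks mark Serpinb1a, Serpina12 and Serpina4-ps1; Serpina3c runs from 1.64 at 2 months to -5.25 with CCl4.

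Serpina3 genes are the mouse expansion of α1-antichymotrypsin, an inhibitor of chymotrypsin-like proteases and an acute phase protein. Near-identical copies can share reads, and how the authors assigned such reads was not given in the sources used here. Values of single Serpina3 genes are therefore uncertain. Serpina3c was 90.6 FPKM in WT, 288 in E1KO, 53.6 in E2KO and 284 in DKO at 2 months. At 8 months Serpina3c was 88.55 in WT, 137 in E1KO, 90.95 in E2KO and 38.1 in DKO. With CCl4 it was 129.7 in WT, 365 in E1KO, 212 in E2KO and 2.43 in DKO. DKO was level with E1KO and above WT at 2 months, the lowest column at 8 months, and 53.4-fold below WT with CCl4.

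The DKO difference of Serpina3c with CCl4, taken from the average of the 3 other genotypes, was lower than that at 2 months (-7.31 ± 0.72 SE, log2; limma with DKO-by-condition terms, adjusted p = 0.0179). In this fit each DKO column has a term of its own, so the arms compared hold 1 DKO column each. The spread, with 4 residual degrees of freedom, comes from the WT, E1KO and E2KO columns alone, and DKO is assumed to vary as they do. Serpina3c was the 1 serpin called in that test, which called 0.29% of all genes (0.219% higher, 0.0702% lower), and its size ranked 2 of 11394. For 8 months against 2 months the corresponding Serpina3c value was -2.75 ± 0.72, which did not pass (limma adjusted p = 0.603). No serpin passed there (0 of 25 beside 0.246% of all genes, 0.184% higher and 0.0614% lower, with 5 under 0.05 unadjusted, as 492 of all genes were).

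Serpina3m, the Serpina3 gene of highest mean FPKM in the table, was 242 FPKM in WT, 329 in E1KO, 157 in E2KO and 336 in DKO at 2 months. The 8-month values were 179 in WT, 247 in E1KO, 222 in E2KO and 92.4 in DKO, and those with CCl4 548, 709, 591 and 469. E1KO and DKO were the high columns of both Serpina3m and Serpina3c at 2 months, and DKO the low column of both at 8 months. With CCl4 DKO was again the lowest for Serpina3m, but at 85.5% of WT, where Serpina3c was at 1.87%.

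Serpina3n, an acute phase gene that inhibits granzyme B and leukocyte elastase in the mouse, gave another order. At 2 months it was 467 FPKM in WT, 176 in E1KO, 160.3 in E2KO and 126 in DKO. Its 8-month values were 90.9 in WT, 129 in E1KO, 128 in E2KO and 78.4 in DKO, and with CCl4 323, 270.5, 352 and 529. WT at 2 months stood at least 2-fold above the other 3 genotypes, as 0.29% of all tested genes did (at 8 months Serpina12 did so, beside 0.298%), and with CCl4 DKO was the highest column. Neither its DKO against WT difference (-0.46 ± 0.46 SE, log2; limma adjusted p = 0.623) nor its change from 2 months to CCl4 (0.82 ± 0.39; 0.105) passed. That change passed without the WT columns (1.27; limma adjusted p = 0.0173) and against 8 months in place of 2 months (1.77; 0.00461). Serpina3f ranged from 1.15 to 6.33 FPKM and Serpina3g from 2.35 to 8.1, each highest in E1KO with CCl4.

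Serpina6 and Serpina7 bind hormones in plasma: Serpina6 is corticosteroid-binding globulin and Serpina7 thyroxine-binding globulin. Serpina6 was 191 FPKM in WT, 344 in E1KO, 265 in E2KO and 397 in DKO at 2 months. The 8-month values were 296, 339.8, 502 and 445 in that order. With CCl4 it was 81.0 in WT, 37.7 in E1KO, 78.02 in E2KO and 308 in DKO. The DKO column thus kept 77.7% of its own 2-month level, WT 42.3%, E2KO 29.5% and E1KO 10.96%. Serpina7 was 17.6 FPKM in WT, 14.8 in E1KO, 17.4 in E2KO and 25.6 in DKO at 2 months, and 49.8, 27.8, 58.75 and 30.0 at 8 months. With CCl4 it was 11.4, 9.03 and 10.5 in WT, E1KO and E2KO, which lay below their 2-month values, and 92.7 in DKO, 8.12-fold above WT.

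Neither carrier gene passed in DKO against WT over all conditions (Serpina6 1.18 ± 0.48 SE, log2, limma adjusted p = 0.229; Serpina7 0.91 ± 0.64, 0.484). For the DKO difference with CCl4 against that at 2 months, again 1 DKO column against 1 with the spread taken from the other genotypes, Serpina7 reached 2.46 ± 0.35 (limma adjusted p = 0.0676; 0.0330 when the 8-month column labelled E1KO is left out) and Serpina6 1.68 ± 0.69 (0.535). Of 25 serpins, 8 had an unadjusted p under 0.05 in that test, as did 1047 of 11394 genes.

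Among the other clade A genes, Serpina10 encodes the protein Z-dependent inhibitor of coagulation factor Xa. It was 286 FPKM in WT, 186 in E1KO, 152 in E2KO and 158 in DKO at 2 months, then 133, 107, 140.3 and 101 at 8 months, and 174, 199.8, 210.0 and 205 with CCl4. Its columns spanned 2.82-fold, WT at 2 months was the highest, and it was not called by genotype or against 2 months; CCl4 against 8 months called it (0.72; limma adjusted p = 0.0112). Serpina11, a liver serpin, was 292 FPKM in E1KO and 237 in DKO at 2 months, against 109.5 in WT and 92.6 in E2KO. Elsewhere it was 58.4 to 156 FPKM. Serpina9, known from germinal centre B cells, was 1.24 to 7.33 FPKM at 2 months and 0.17 to 0.78 at 8 months. Serpina5, the protein C inhibitor that mouse liver is known to lack, peaked at 1.14 FPKM and did not pass the filter; with no filter on low values it was called with CCl4 (0.59; limma adjusted p = 0.00485).

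**Figure D4:**
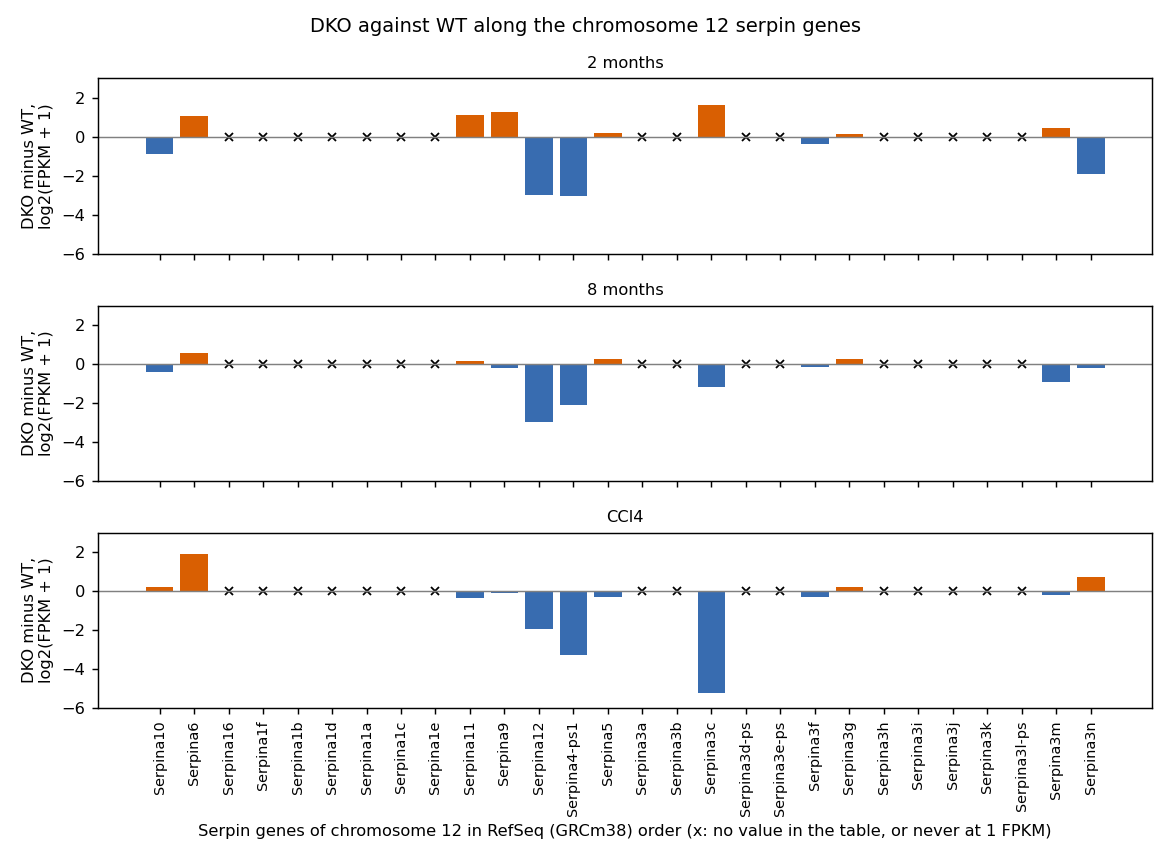
DKO minus WT in log2(FPKM + 1) for the serpin genes of chromosome 12 in their RefSeq order, with 1 panel per condition; crosses mark genes with no value or never at 1 FPKM. The neighbours Serpina12 and Serpina4-ps1 are below 0 in all 3 panels, while Serpina3c turns from 1.64 to -5.25 and Serpina6, at the other end, is above 0 in all 3.

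Along chromosome 12, 28 serpin genes are listed in order, 18 have values and 12 reach 1 FPKM. The 2-fold counts that follow cover all tested serpins, on any chromosome. Serpinb1a and Serpinb6a lie on chromosome 13, Serpine2 on 1 and Serpina7 on X. By the 2-fold rule, DKO at 2 months was above WT for 5 serpins (Serpina11, Serpina3c, Serpina6, Serpina9 and Serpinb1a), beside 1.99% of all tested genes. It was below WT for 4 (Serpina12, Serpina3n, Serpina4-ps1 and Serpine2), beside 1.48%. At 8 months 2 were above (Serpinb1a and Serpinb6a, beside 2.86%) and 4 below (Serpina12, Serpina3c, Serpina4-ps1 and Serpine2, beside 1.22%). With CCl4 4 were above (Serpina6, Serpina7, Serpinb1a and Serpine2, beside 2.93%) and 3 below (Serpina12, Serpina3c and Serpina4-ps1, beside 2.47%). In 3 of 3 conditions Serpinb1a was above (0.456% of all genes were) and Serpina12 and Serpina4-ps1 below (0.176%). These counts share the WT and DKO columns with the fit across conditions.

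DKO alone stood at least 2-fold outside the other 3 genotypes for Serpinb1a (higher, beside 0.72% of all genes) and Serpina4-ps1 (lower, 0.246%) at 2 months. At 8 months these were Serpinb1a (higher, 1.73%) and Serpina12, Serpina3c and Serpine2 (lower, 0.316%). With CCl4 they were Serpina6, Serpina7 and Serpine2 (higher, 1.72%) and Serpina12, Serpina3c and Serpina4-ps1 (lower, 0.702%). E1KO alone stood outside with CCl4 for Serpinh1 (higher, 0.351%) and Serpina6 (lower, 0.246%).

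Clade B serpins stay inside cells and guard against proteases released there. Serpinb6a, an inhibitor of cathepsin G, was 4.39 FPKM in WT, 4.4 in E1KO, 4.56 in E2KO and 6.3 in DKO at 2 months. In the same order it was 5.33, 13.6, 5.27 and 11.9 at 8 months, and with CCl4 21.9, 29.9, 21.3 and 34.9. The CCl4 columns lay above every untreated column, and at 8 months E1KO and DKO lay apart from WT and E2KO. It rose with CCl4 by 2.23 ± 0.18 (SE, log2; limma adjusted p = 4.74e-05), at least 2-fold in 4 of 4 genotypes, as 3.93% of all genes did. DKO against WT gave 0.71 ± 0.21 (limma adjusted p = 0.128).

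CCl4 against 2 months called 13 of 25 serpins, 8 higher and 5 lower, beside 57.9% of all genes (33.4% higher, 24.5% lower). That is 52% of the serpins, close to the share of all genes, and the median difference was 0.12 against 0.07 over all genes. Besides Serpinb6a, those that rose included Serpinh1, Serpina3m, Serpinb8, Serpinb6b, Serpina3g and Serpinb9, by 1.95 down to 0.43 on the log2 scale. Serpinb9, the intracellular granzyme B inhibitor, rose by 0.43 (limma adjusted p = 0.0298); its 2-month columns spanned 1.51 to 2.32 FPKM and its CCl4 columns 2.29 to 3.42, so the ranges overlapped. Calls near the threshold changed with the setting. Without the E1KO columns Serpinb9 (limma adjusted p = 0.134) and Serpinb6b (0.0564) lost their calls, without E2KO Serpina3g did (0.0846), and Serpinb9 also did without WT (0.0998), with no filter on low values (0.0568) and with columns rescaled by median ratios (0.0519). Serpinb6b also lost its call against 8 months (0.0521). Serpina11 (-0.93; 0.0246) and Serpina9 (-1.16; 0.0145) were called lower without E2KO, Serpina7 (-0.64; 0.0199) lower without DKO, and Serpina3f higher against 8 months (0.63; 0.0272). Serpinb1a was called lower with a pseudocount of 0.1 (-0.35; 0.0188) or 0.5 (-0.26; 0.0371) and against 8 months (-1.96; 6.39e-06). Macrophage markers (14 in the table) summed to 431 to 952 FPKM with CCl4 and 118 to 301 without, and 13 of the 14 rose; their part in the clade B rises was not tested.

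The 5 that fell with CCl4 were Serpina4-ps1 (-2.88 ± 0.49 SE, log2; limma adjusted p = 0.00119), Serpina6 (-1.62 ± 0.42; 0.0092), Serpinf1 (-1.08 ± 0.16; 0.000647), Serpinc1 (-0.90 ± 0.18; 0.00294) and Serping1 (-0.34 ± 0.13; 0.0469). Serpina4-ps1 was at least 2-fold lower in 4 of 4 genotypes, as 1.81% of all genes were. The Serping1 call is lost when columns are rescaled to the same total (-0.24; adjusted p = 0.107), with no filter on low values (0.0662), without the 8-month column labelled E1KO (0.0649), or when WT, E1KO or E2KO is left out (0.106 to 0.167), and against 8 months in place of 2 months its difference is 0.097 (0.531).

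**Figure D5:**
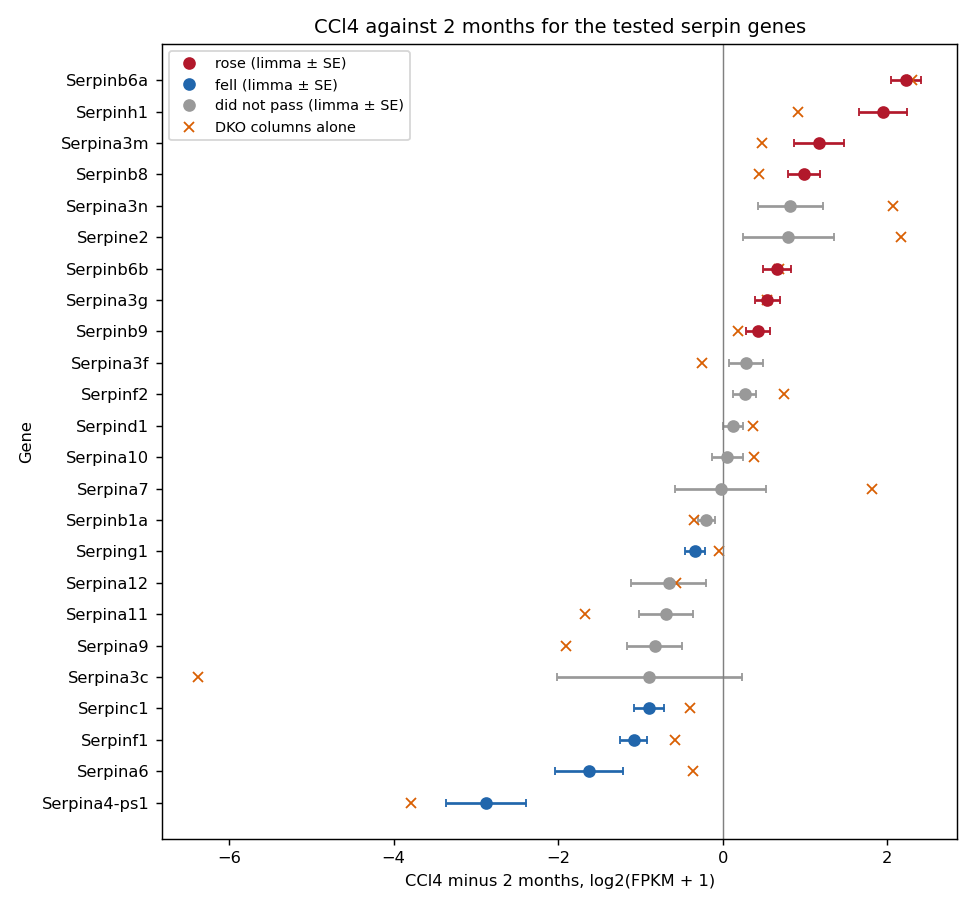
Difference of log2(FPKM + 1) between CCl4 and 2 months for 24 tested serpin genes, as limma estimates over 4 genotypes with their SE (red rose, blue fell, grey did not pass) and the DKO columns alone (crosses). Serpinb6a leads the rises at 2.23; the DKO crosses of Serpina3c, Serpina7 and Serpine2 lie far from the joint estimates.

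The plasma serpins of clades C to G include inhibitors of the coagulation and complement cascades. Serpinc1, Serping1 and Serpinf1 had the highest mean FPKM of the serpin rows in the table. Serpinc1, antithrombin, was 1270.3 FPKM in WT, 1432 in E1KO, 1406 in E2KO and 1204 in DKO at 2 months. The 8-month values were 1131, 982, 1159.6 and 758 in the same order, and with CCl4 649.8, 605, 713 and 911. With CCl4 each genotype was below its own 2-month value, DKO least. Serping1, the C1 inhibitor of complement, was 599 FPKM in WT, 614 in E1KO, 611 in E2KO and 432 in DKO at 2 months. Its 8-month values were 449, 412, 501 and 314 in that order, and its CCl4 values 377, 461, 525 and 418. DKO was the lowest Serping1 column at 2 and 8 months but not with CCl4, and its difference from WT was not called.

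Serpinf1, pigment epithelium-derived factor, which is not an inhibitor, was 449 to 643 FPKM untreated and 250.2 to 254 with CCl4 in WT, E1KO and E2KO, against 382 in DKO. Serpinf2, α2-antiplasmin, and Serpind1, heparin cofactor II, stayed within 213 to 520.4 and 168 to 329.9 FPKM. They were not called by genotype or against 2 months, but CCl4 against 8 months called both (Serpinf2 0.80, limma adjusted p = 0.00128; Serpind1 0.60, 0.0029).

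Serpine2 encodes protease nexin 1, a cell-surface inhibitor of thrombin. It was 8.57 FPKM in WT, 1.59 in E1KO, 8.43 in E2KO and 3.44 in DKO at 2 months. Its levels were 16.6, 13.85, 11.7 and 4.09 at 8 months, and with CCl4 5.58, 8, 6.97 and 19.0. DKO was thus 2.49-fold and 4.07-fold below WT untreated and 3.41-fold above it with CCl4. Over the conditions the DKO difference was -0.43 ± 0.64 (SE, log2; limma adjusted p = 0.756).

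Serpinh1 encodes HSP47, the collagen chaperone of the endoplasmic reticulum. It was 6.54 FPKM in WT, 11.3 in E1KO, 4.3 in E2KO and 12.2 in DKO at 2 months, 4.47 to 8.17 at 8 months, and with CCl4 30.1, 61.7, 28.7 and 23.8. All CCl4 columns lay above all others, DKO by the least over its own 2-month value (1.95-fold, against 4.60-fold in WT). The rise with CCl4 was 1.95 ± 0.29 (SE, log2; limma adjusted p = 0.000555). Stellate cell markers (12 in the table) all rose, summing to 295 to 390 FPKM with CCl4 and 86.7 to 216 without. With CCl4, E1KO was highest for both this sum and Serpinh1. DKO was above WT in the sum (342 against 295) but below WT for Serpinh1. The part of these cells in the Serpinh1 rise was not tested.

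Age called few serpins, in a comparison that shares the 2-month columns with that of CCl4. At 8 against 2 months 2 of 25 passed, 1 higher and 1 lower, beside 4.29% of all genes (2.7% higher, 1.59% lower), and 9 had an unadjusted p under 0.05, as did 2533 of 11394 genes. Serpinb1a rose by 1.76 ± 0.10 (SE, log2; limma adjusted p = 0.000157), at least 2-fold in 4 of 4 genotypes, as 0.193% of all genes did (0.149% were lower). Serpina9 fell by 1.60 ± 0.34 on the log2 scale (limma adjusted p = 0.0378), a call lost without the 8-month column labelled E1KO (0.114) and without the WT (0.177), E1KO (0.198) or DKO columns (0.0913) and with no filter (0.0714). Without E2KO Serpina11 was called lower (-1.45; limma adjusted p = 0.0498), and without DKO Serpina7 higher (1.34; 0.0254). Differences were below 0 for 16 of 25 serpins, with a median of -0.35 against -0.00072 over all genes. Hepatocyte markers moved with this, with a median of -0.47 and 9 of 10 below 0, and macrophage markers too (-0.62, 12 of 14), though none of either list passed; their part in the serpin shift was not tested.

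The proteases that serpins restrain, and other inhibitors, were read from lists. In DKO against WT, where 2.62% of all genes were called (1.81% higher, 0.816% lower), 0 of 7 fibrinolysis genes, 0 of 6 tested genes of the classical and lectin complement pathways, 0 of 9 cathepsins and 0 of 18 tested collagen and collagen-modifying genes passed. Of 8 coagulation proteases F11, coagulation factor XI, fell (-1.06; limma adjusted p = 0.0314); WT against DKO it was 74.05 against 43.6 FPKM at 2 months, 30.7 against 17.15 at 8 months, and 52.1 against 16.2 with CCl4. Of 19 tested inhibitors of other families Wfdc2 rose (3.17; limma adjusted p = 0.00807), with WT against DKO at 1.03 against 32.3 FPKM at 2 months, 9.48 against 59.5 at 8 months and 8.86 against 74.4 with CCl4. Wfdc2 encodes a small secreted whey acidic protein domain protein. Neutrophil and mast cell proteases (7 genes) summed to 0.18 to 11.69 FPKM, highest in DKO with CCl4. Of the Serpinb1a targets among them, Elane was at most 0.18 FPKM, Ctsg at most 0.09, and Prtn3 0.05 to 10.49. Granzymes summed to 0.22 to 1.34.

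With CCl4, against 33.4% of all genes higher and 24.5% lower, 15 of 18 tested genes for fibrillar collagens and collagen-modifying enzymes rose and 0 fell (median 1.04). All 5 collagens among them rose, such as Col1a1 (2.42; limma adjusted p = 7.38e-05). Of 9 cathepsins 6 rose and 0 fell. Fibrinolysis genes split, with 4 of 7 higher, among them Plau (1.71; limma adjusted p = 8.71e-05), which encodes the plasminogen activator urokinase, and 2 lower, among them Plg (-0.32; 0.0430), the plasminogen gene. Of 6 complement genes (C4b, which is not a protease, included) 4 fell, among them C1ra (-0.86; limma adjusted p = 0.00116) and C1s (-0.60; 0.00641), targets of Serping1. Of 8 coagulation proteases 3 fell and 0 rose. Of 19 other inhibitors 10 rose and 4 fell; Slpi, the secretory leukocyte protease inhibitor, rose by a log2 value of 3.79 (limma adjusted p = 2.39e-05).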

How the data were processed

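Mouse liver RNA (1 ug per library) was sequenced after TruSeq preparation, per the labels' protocols. The authors deposited 1 table of FPKM values with 22520 genes and 12 columns, 1 per group, on mm9; the submitters' processing notes name CASAVA, TopHat and Cufflinks for the series, without versions. How replicates were combined, and how reads of near-identical genes were assigned, was not given in the sources used here. Depth is unknown, so no counting interval is given. The 9 ChIP-seq samples were not analysed here. Column totals ran from 531761 to 674119 FPKM.

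The 11394 genes that reached 1 FPKM in 2 or more columns were fitted as log2(FPKM + 1), on the deposited scale, with limma 3.58.1 in R 4.3.3 (additive genotype and condition terms, eBayes with trend, 6 residual degrees of freedom; 4 with DKO-by-condition terms, all from the WT, E1KO and E2KO columns). Tests were two-sided, with Benjamini-Hochberg adjustment over all genes tested and a threshold of 0.05. The fit was tested on simulated data. A pseudocount of 1 understates changes of low genes. Within a condition, genes at least 2-fold apart were counted with no test.

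All serpins reaching 1 FPKM could be named. Of these, 1 gene is counted but not reported here, in the text or figures. All 12 values were due for those called in a genotype or DKO-by-condition contrast, the 2 of highest mean in each group, and those 2-fold apart between DKO and WT in 3 of 3 conditions; Serpina7, Serpine2 and Serpinh1 were added after their values were seen, as were the examples from the lists the 4 printed windows and the counts of columns standing outside others. The serpins, gene lists and alternatives were chosen with earlier results of these data known. Symbols of 56 of the 57 rows matched the RefSeq table (GRCm38), used for gene order only. Alternatives were other pseudocounts (0.1, 0.5), no filter, rescaled columns, no trend, left-out columns, conditions or genotypes, another reference, and only the WT and DKO columns.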

Additional observations from a re-analysis of the deposited data

Results flagged for a closer look

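Serpina3c differed between conditions in its DKO difference: the value with CCl4 was lower than that at 2 months (-7.31, log2), past the threshold in limma with DKO-by-condition terms (adjusted p = 0.0179). This sets 1 DKO column against 1, and the spread comes from the other 3 genotypes only. Against WT alone, the 2-month value was 1.64, the 8-month value -1.20 and the CCl4 value -5.25 in log2(FPKM + 1), and these single differences were not tested. Reads shared with other Serpina3 genes make its level uncertain.

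Serpine2, protease nexin 1, was lower in DKO than in WT at 2 months (-1.11) and at 8 months (-1.79) and higher with CCl4 (1.60), again in log2(FPKM + 1). The change of sign against WT was not tested. The DKO difference from the average of the other genotypes moved by 1.83 ± 0.91 (SE, log2) from 2 months to CCl4 and did not pass in the same fit (limma adjusted p = 0.626).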

How the results depend on the processing

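Of the 3 serpin calls of DKO against WT, Serpina12 and Serpina4-ps1 need all conditions and Serpinb1a the 2-month columns: leaving out columns or conditions gave 0 to 2 (0 without 2 months, 1 without 8 months, 1 without CCl4, and 2 without the 8-month column labelled E1KO), no filter on low values gave 1, and only the WT and DKO columns gave 0. Serpina12 gave adjusted p of 0.0513 to 0.265 over the left-out sets and 0.0601 with no filter, and Serpina4-ps1 0.0533 with a pseudocount of 0.1 and 0.0611 with no filter; Serpinb1a lost its call without 2 months (0.0782) and with only the WT and DKO columns (0.0842). The 2 calls of 8 against 2 months became 1 with no filter and 1 to 3 with left-out genotypes or columns (1 without WT, without E1KO and without the 8-month column labelled E1KO). The 1 call of the DKO difference with CCl4 became 2 without the 8-month column labelled E1KO, where Serpina7 passed. Serping1 with CCl4 turned from -0.34 to 0.097 with 8 months as the reference. Over single genes, all 25 were compared for DKO against WT and its change with CCl4. For CCl4 and age only those called were, so that calls gained there are not counted. Values on the same side of the threshold numbered 261 for DKO against WT, 174 for its change with CCl4, 139 for CCl4 and 17 for age. Those not called in either fit count here whatever their direction, which could change. Of the others, 35 kept direction but lost the call, 1 gained it and 1 reversed. Of the counts, 76 stayed within 1.5 times and 10 did not. Changes against these settings have no tested cause; depth is unknown and 1 column per group limits every result. No paired analysis was possible because each group has 1 column and no replicate number; genotypes are matched by condition in the additive fit and in that of only the WT and DKO columns.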
